A study of Saccharomyces cerevisiae BY4741 with 25 samples.

Results

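Sequence differences found in the pooled genomic DNA of the yeast mutant RRC8, and absent from the list of its parental strains, are described here. They were the 119 calls among 449 in the RRC8 list that had at least 10 reads and whose chromosome, position, reference allele and alternate allele were not in the parental list of 447 calls. A further 41 calls absent from the parental list had fewer than 10 reads and were left out. At the limit, 2 of the 119 calls had 10 reads and 1 call just outside it had 9. The 9 full lists of the series held 4459 calls. The RRC8 count of 119 was the lowest of the 8 mutants, whose other 7 pools had 151 to 262 calls chosen the same way. Those 7 pools also had longer full lists, of 472 to 598 calls. In the other direction, 111 parental calls with at least 10 reads were absent from the RRC8 list, so mismatch between the lists ran both ways.

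The RRC8 library was made from Saccharomyces cerevisiae of the BY4741 background carrying the strain name YTT66_a44, a mixture of MATa and MAT alpha cells. Its clones were grown from spores of a backcross, each in its own YPD culture, and harvested together in stationary phase. The parental library held YTT66 and YTT67 combined, also both mating types, in stationary phase after growth in YPD. The study, by its design text, looked for mutations that release repression of SIR2. Each library is a single pool with no replicate, and a parental allele was left out of the 119 calls only where both lists wrote the entry identically. How many clones were pooled, which mutagen was used, the variant caller and the build were not given in the sources used here, and positions are those of the authors' files. Sequencing tools are named for the parental library and not for RRC8, so differences in processing and differences between the strains cannot be told apart. The calls had a median depth of 39 reads in RRC8 and 37 reads in the parental pool, and of 60 and 61 reads where the score reached 200.

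In pooled linkage analysis, mutant spore clones from a backcross are sequenced together. A change that causes the phenotype, or lies close to it on the chromosome, is carried by all of the clones and reaches nearly all reads, while a change elsewhere that entered the cross from the mutant is carried by about 50% of the clones. Uaf30 is a subunit of upstream activating factor, the complex that binds the ribosomal DNA promoter, recruits RNA polymerase I through core factor and keeps RNA polymerase II away from the ribosomal genes. Sir2 is a histone deacetylase that silences the ribosomal DNA and restrains recombination between its repeats.

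The alleles of calls on most or all RRC8 reads are shown first, since their letters tell which of them differ from what the parental list holds. Lower case letters are as listed and capitals mark the bases deleted from the reference allele or added in the alternate allele. The UAF30 frameshift on chromosome 15 and the dinucleotide deletion upstream of LEU2 on chromosome 3 had no parental call within 5 bases.
UAF30 reference: aGgg
UAF30 alternate in RRC8: agg
LEU2 upstream reference: aATatatatatatatat
LEU2 upstream alternate in RRC8: aatatatatatatat

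The next alleles are those of a serine tRNA gene, ASG1 and HSM3, which sat 1 to 3 bases from a parental call with other letters.
tS_AGA_D3 reference in RRC8: tGg
tS_AGA_D3 alternate in RRC8: tg
tS_AGA_D3 parental reference: cTtt
tS_AGA_D3 parental alternate: ctt
ASG1 reference in RRC8: aaataataat
ASG1 alternate in RRC8: aAATaataataat
ASG1 parental reference: taa
ASG1 parental alternate: tAAAaa
HSM3 reference in RRC8: tCATCTGC
HSM3 alternate in RRC8: t
HSM3 parental reference: cATCTGCAatctgcaatct
HSM3 parental alternate: catctgcaatct

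ALT2 shows how an allele can escape the match to the parental list: both lists hold the same deletion, written with a different amount of flanking sequence.
ALT2 reference in RRC8: cAT
ALT2 alternate in RRC8: c
ALT2 parental reference: cATt
ALT2 parental alternate: ct

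By the deposited annotation, 40 of the 119 calls changed a protein, in 36 loci. They were 33 missense changes, 5 frameshifts and 2 in-frame insertions or deletions, with 0 stop gains and 1 frameshift, in HSM3, that was also annotated as a loss of the stop codon. Another 23 calls were synonymous, 3 lay in RNA genes, 6 upstream and 7 downstream of a gene, and 40 had no effect assigned. Single-base changes made up 92 calls and the other 27 were insertions, deletions or had several alternates. The share of reads with the alternate allele ran from 8% to 100% with a median of 46%, and depth ran from 10 to 946 reads with a median of 53. Chromosome 1 held 18 of the calls, chromosome 4 held 16 and chromosome 13 held 12, while chromosomes 5 and 15 held 1 each. The call on chromosome 15 was the UAF30 frameshift.

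**Figure D1:**
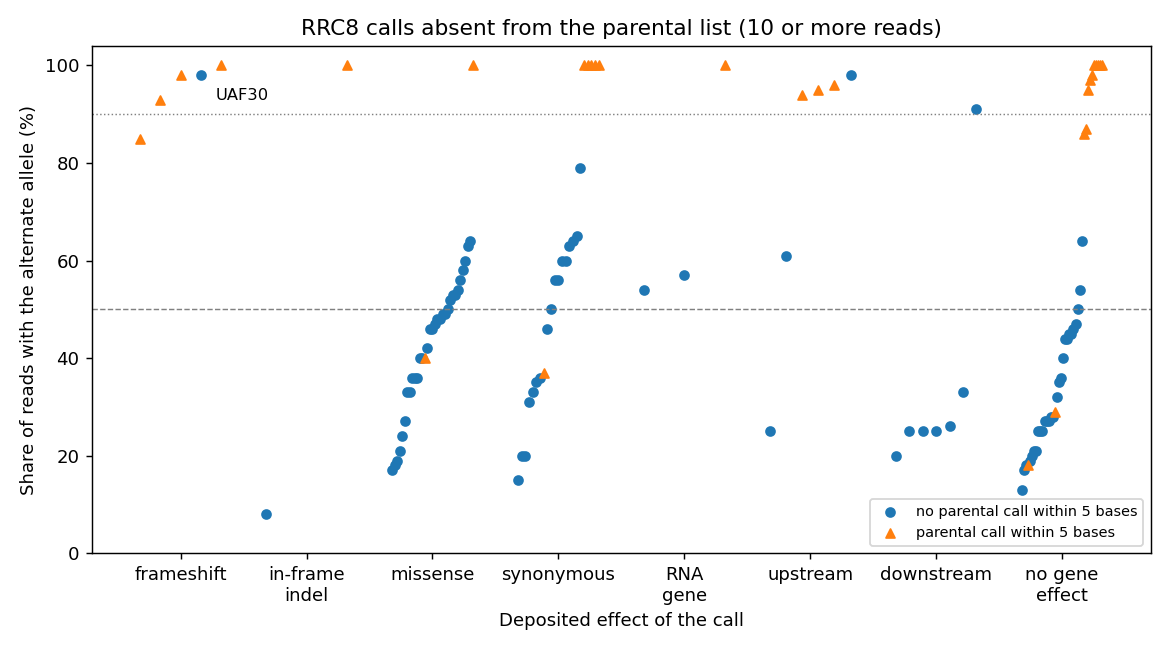
Percent of reads with the alternate allele (y axis) for each of the 119 RRC8 calls, grouped by annotated effect (x axis); each point is 1 call, orange where a parental call lies within 5 bases and blue where none does, with lines at 50% and 90%. Frameshifts sit at 85% to 100%, missense changes spread from 17% to 100% with a median of 46%, and calls upstream of genes have a median of 94.5%.

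Each share was set against 50% by a two-sided exact binomial test, with Benjamini-Hochberg adjustment over the 354 RRC8 calls with at least 10 reads. A call was counted as nearly fixed at 90% or more with an adjusted p below 0.05. Of the 119 calls 25 (21.0%) were nearly fixed, against 53.7% of all 354 RRC8 calls, most of which were shared with the parental list. Of those 25, 6 changed a protein, which is 5.04% of the 119 calls, against 17.5% of all 354. The 95% intervals given are exact Clopper-Pearson intervals, and they and the tests cover counting error only, since reads of an amplified library are not independent molecules and the clones that entered the pool are not modelled.

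UAF30 (YOR295W), the subunit of upstream activating factor, carried a frameshift at codon 112, at position 869540 of chromosome 15, where 1 G of a run of 3 was deleted. In RRC8 the deletion was on 54 of 55 reads, 98% (90.3% to 100%), and the remaining 1 read did not carry it. Its adjusted exact binomial p was 1.12e-14 and the score was 214. The parental list held 0 calls in UAF30. The RRC5 pool held the same deletion on 45 of 45 reads, 100% (92.1% to 100%). RRC8 minus RRC5 was -1.82 points, and the exact Fisher's test of the reads of these 2 libraries gave p = 1 (two-sided). No other mutant list had a call in UAF30.

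The other nearly fixed calls lay mostly on top of parental calls. Of the 25, 20 were not single-base changes, 22 had a parental call within 5 bases and 19 carried the same changed letters as an allele in the parental list. At 15 of the 25 positions all 7 other mutant lists had a call, and at 0 of them was RRC8 the only mutant. The 19 included frameshifts in ALT2 (100% of 26 reads, against 100% of 34 reads in the parental pool), YCR024C-B (98% of 56 reads, against 100% of 43) and YHL041W (93% of 46 reads, against 93% of 63), and P50R in COS5 (100% of 17 reads). ALT2 is related to alanine transaminases, and COS5 belongs to a family of similar subtelomeric genes that share reads.

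The 6 nearly fixed calls whose changed letters were not in the parental list were few enough to list. UAF30 is given above. The LEU2 call lay upstream of the gene for beta-isopropylmalate dehydrogenase, a leucine biosynthesis enzyme. It was on 98% of 153 reads, with a call at the position in 5 other mutant lists. Its depth was 2.55 times the library's median over calls scored at least 200, and depth within LEU2, given further on, was higher still. A call downstream of SRB6, a Mediator subunit gene, was on 91% of 24 reads with a score of 6.54 and a call in 3 other lists. These 3 had no parental call within 5 bases.

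The other 3 each had a parental call beside them. The serine tRNA call was on 100% of 64 reads in RRC8, and the parental call 3 bases away was on 100% of 60 reads. An intergenic deletion at position 405084 of chromosome 7 was on 100% of 41 reads in RRC8, with a parental deletion 1 base away on 100% of 44 reads. In ASG1, a zinc cluster transcription regulator, an added residue written D888ND was on 100% of 47 reads in RRC8, and the parental insertion 3 bases away was on 88% of 44 reads. The identical entry was in all 7 other mutant lists for the tRNA gene, in 6 for ASG1 and in 2 for the chromosome 7 deletion. The HSM3 deletion shown above was on 85% of 57 reads in RRC8, and the parental deletion 1 base away on 100% of 61 reads. The identical HSM3 entry was in 2 other mutant lists. Hsm3 is an assembly chaperone of the proteasome. Placed on the same reference stretch, the RRC8 and parental alleles as listed gave different sequences for each of these neighbours. Whether the calls of both libraries come from 1 difference was not tested.

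To set aside calls that touch the parental list or recur across the mutants, a restricted set was taken: a score of at least 200, no allele of any kind listed there in the parental pool, and not more than 1 other mutant list with a call there. It held 39 of the 119 calls, of which 38 were at positions in no other mutant list. They were 17 missense changes, 1 frameshift, 8 synonymous changes, 2 calls in RNA genes, 1 upstream of a gene and 10 with no effect assigned. UAF30 was the nearly fixed call among them, and of the other 38 none reached that threshold. UAF30 was in the set because a call in 1 other mutant list, that of RRC5, was allowed. A rule that allowed none would have left it out. The 2 calls of the set that were not single-base changes were the UAF30 deletion and a 4-base insertion on chromosome 11, on 86% of 43 reads, which lay 1 base from a parental insertion on 80% of 35 reads.

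All 37 single-base calls of the restricted set were G:C to A:T changes. Their share averaged 52.9 ± 6.66% (SD over the 37 calls of the single RRC8 pool), with a median of 53%, and ran from 42% to 64% on 51 to 90 reads. Of these, 33 did not pass the test against 50%, 4 were above it and 0 were below it. The 4 were ZRT2, RPA135, PNG1 and an intergenic call on chromosome 7 at 64% of 68 reads. Their unadjusted exact binomial p-values were 0.0186 to 0.0245. Adjustment changed these little, because 190 of the 354 calls it ran over were nearly fixed. No adjustment over the 37 calls alone was made, so these 4 departures from 50% are weak. The score threshold removed calls of low share: at a score of 100 or more the 44 such calls averaged 50.4 ± 8.68% with 4 above and 3 below 50%. With no score threshold the 53 calls averaged 46.2 ± 12.5% with 4 above and 7 below, and ran down to 18%.

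**Figure D2:**
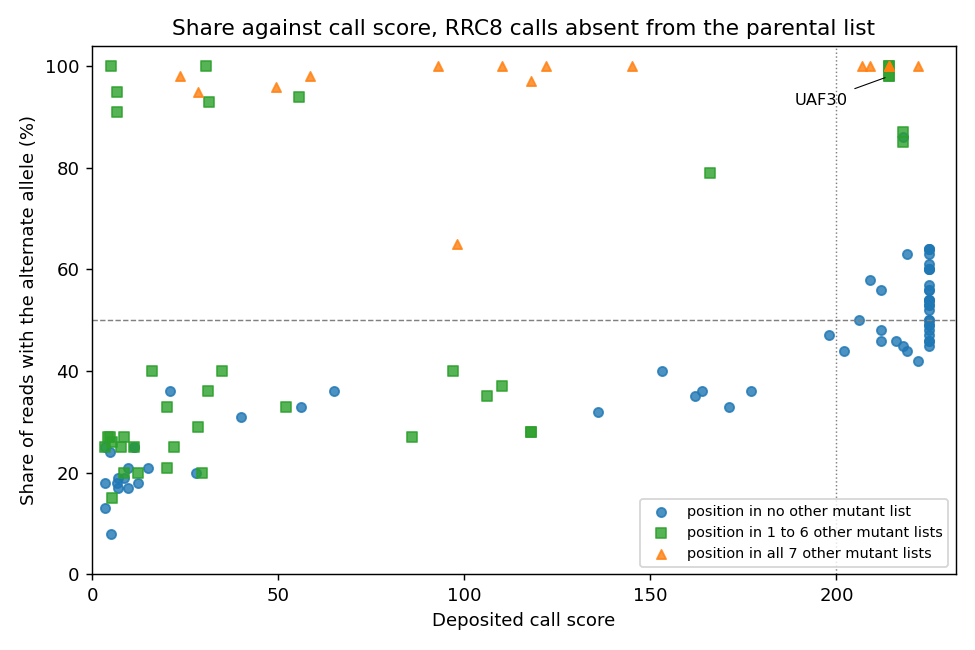
Percent of reads with the alternate allele (y axis) against the deposited call score (x axis) for the 119 RRC8 calls; each point is 1 call, its colour and shape give how many of the 7 other mutant lists have a call at the position, the dotted line is a score of 200 and the dashed line 50%. Past a score of 200, calls in no other list lie between 42% and 64%, apart from a chromosome 11 insertion at 86%, and UAF30 is at 98%.

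The 17 missense changes of the restricted set had a median share of 52% on 51 to 90 reads, and 15 of them did not pass the test against 50%. An acidic residue was replaced in 7 of the 17, with glutamate to lysine in 4 and aspartate to asparagine in 3. All 7 were G to A at the first base of the codon, within the substitution class shared by all single-base calls of the set. No expected share was computed.

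The 17 genes are described by their known roles, an order set after the calls were seen and not a test of any role. RPA135 encodes the second largest subunit of RNA polymerase I, the enzyme that transcribes the ribosomal DNA. Its V685I was on 63% of 72 RRC8 reads, above 50% with an adjusted exact binomial p of 0.0332. Kri1 and Fcf2 are nucleolar proteins of ribosomal RNA processing, neither of which is on the lists of genes counted further on. KRI1 E463K was on 60% of 78 reads (adjusted exact binomial p = 0.113), and FCF2 D43N was on 54% of 51 reads.

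Rad52 is the central factor of homologous recombination in yeast, and RAD52 P432L was on 58% of 53 reads. Snu23 and Prp3 are components of the spliceosome's U4/U6.U5 particle. SNU23 E130K was on 48% of 68 reads, and PRP3 D33N was on 50% of 56 reads. Vas1 is the valyl-tRNA synthetase, whose P1022L was on 52% of 70 reads. Qri7 makes a modified base of mitochondrial tRNAs, and QRI7 E100K was on 49% of 79 reads. None of these 5 shares passed the test.

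Gal10 is the epimerase of galactose use, and GAL10 G75D was on 46% of 90 reads. Gdh2 is the NAD-dependent glutamate dehydrogenase, and GDH2 V1008I was on 46% of 81 reads. Dak2 is a dihydroxyacetone kinase, with P366S on 56% of 73 reads. Fas2, the alpha subunit of fatty acid synthase, had E4K on 53% of 65 reads. The plasma membrane zinc transporter Zrt2 had A30T on 64% of 75 reads, above 50% with an adjusted exact binomial p of 0.0282. Ena5 is a sodium pump encoded in a tandem array of near-identical genes, so reads of ENA5 can come from its neighbours. R1065Q in ENA5 was on 48% of 78 reads.

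The remaining 3 genes were ALG9, APC1 and ASG1. Alg9 is a mannosyltransferase of protein glycosylation, with D469N on 53% of 64 reads. Apc1 is the largest subunit of the anaphase-promoting complex, with P700L on 49% of 61 reads. ASG1 R563Q, a separate change from the residue insertion in the same gene, was on 42% of 84 reads, the lowest share of the 17.

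**Figure D3:**
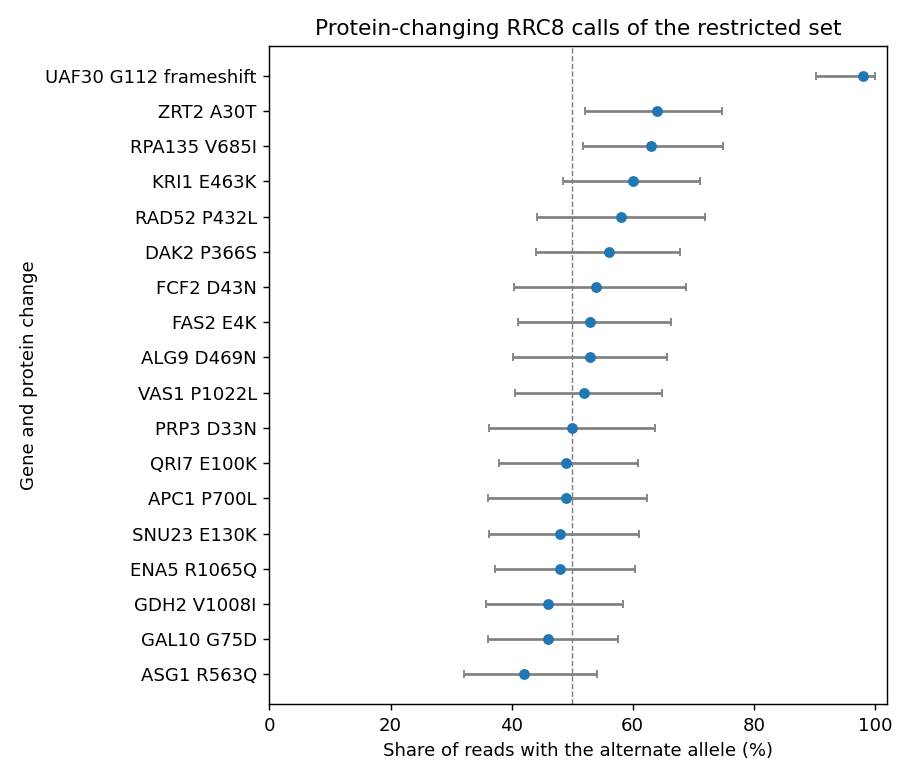
Percent of RRC8 reads with the alternate allele for the protein-changing calls of the restricted set, 1 row per gene and change; points are shares and bars are exact 95% binomial intervals, with a dashed line at 50%. UAF30 at 98% stands apart from 17 missense changes between 42% and 64%.

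Several more single-base G:C to A:T changes fell below the score of 200. There were 7 with a score of 100 to under 200, with neither the parental list nor another mutant list calling the position, and their shares ran from 32% to 47%. Among them TRS120, a subunit of a Golgi trafficking complex, had M161I on 47% of 61 reads. Spc97, a part of the gamma-tubulin complex at the spindle pole, had E655K on 36% of 55 reads. Cet1 is the triphosphatase that begins messenger RNA capping, and CET1 R242K was on 36% of 60 reads. The synonymous T62 of AIM2 was on 35% of 68 reads, below 50% with an adjusted exact binomial p of 0.0283. Also below 50% was a call 18 bases downstream of YDR114C, on 33% of 53 reads (adjusted exact binomial p = 0.0364). A call with no effect assigned, at position 837328 of chromosome 13, was on 32% of 65 reads (adjusted exact binomial p = 0.00862).

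Synonymous changes of the restricted set lay in TPD3 (50% of 77 reads), YJL052C-A (56% of 57), RGR1 (56% of 87), RTP1 (60% of 70), NPR1 (63% of 68), SEC12 (60% of 61), PNG1 (64% of 73) and EAF3 (46% of 58). Of these shares, that of PNG1, which encodes a peptide N-glycanase, was above 50% (adjusted exact binomial p = 0.0262). The other 7 did not pass the test. The tRNA genes SUF3 and tA_AGC_J carried changes on 54% of 77 reads and 57% of 63 reads. A change 7 bases upstream of YNL235C was on 61% of 76 reads.

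Neighbouring calls of the restricted set within 50 kb of each other made 6 pairs, whose shares differed by 1 to 17 points with a median of 5. QRI7 and SNU23, 10.2 kb apart on chromosome 4, were at 49% and 48%. Calls 4 bases apart on chromosome 16 were at 44% and 45%. RPA135 and EAF3, 30.5 kb apart on the same chromosome, were at 63% and 46%, the widest difference among the 6 pairs.

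The members were also read against 8 lists of 111 genes of ribosomal DNA transcription, silencing and chromatin. All members together named 64 loci. The share hit among all genes was not counted, so the counts below only describe the lists. Of 8 upstream activating factor and associated histone genes, 1 was hit, UAF30. Of 14 RNA polymerase I subunit genes 1 was hit, RPA135, and of 16 recombination and replication genes 1 was hit, RAD52. Of 16 histone modification genes 1 was hit, the deacetylase HOS2, by 2 calls downstream of it that were each on 25% of 27 reads. Their scores were 3.54 and 22. Of 21 remodelling and Mediator genes on the list 1 was hit, the co-repressor CYC8, by a synonymous change at Q529 on 33% of 18 reads with a score of 56. That list does not hold every Mediator gene: SRB6 and RGR1, which also encode Mediator subunits and carried the downstream and synonymous calls given above, are not on it. The core factor list (0 of 5), the silencing and ribosomal DNA stability list (0 of 17) and the TOR and ribosome assembly list (0 of 14) held none. Other lists are not complete either: KRI1, FCF2, NPR1, TPD3 and EAF3, given above with restricted calls, are on none of the 8. A list without a hit thus does not show that its process was free of calls. The 8 lists held 1 nearly fixed protein-changing call, that of UAF30.

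Of the 119 calls 31 (26.1%) were below 50% with an adjusted p below 0.05, against 16.7% of all 354 RRC8 calls. Their shares ran from 8% to 35%, 23 of them had a score under 30, the median score was 12.3 and the highest was 171. None belonged to the restricted set, and 18 lay at positions in no other mutant list. They were 27 single-base changes, 8 of them G:C to A:T, and 7 changed a protein. The lowest was an in-frame deletion of 1 asparagine in FAB1, the lipid kinase of the vacuole, on 8% of 35 reads. Further protein changes were CSS1 D174G (27% of 68 reads), MNN4 M1115K (19% of 51), YFR036W-A Y18F (24% of 25), YFL067W T64I (21% of 28), YBL113C E136D (18% of 16) and YMR317W L338S (17% of 29).

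The 4 cell-wall genes FLO9, FLO1, FLO5 and DAN4 held 12 of the 119 calls (10.1%), beside 33 of the 234 calls that RRC8 shared with the parental list (14.1%), so their share was no higher among the 119. FLO1 and FLO5 had 1 call each. FLO9, a flocculin gene with internal repeats, had 7, of which 5 had a parental call at the same position. Its nearly fixed calls were synonymous and on 100% of 11 to 26 reads, while S772R was on 40% of 10 reads and T809 on 65% of 26. DAN4, a cell-wall mannoprotein gene, had 3 calls at 37% to 40%, among them K245T on 40% of 25 reads. YMR317W had 4 calls at 15% to 33% with scores of 5.46 to 52. YNL284C-B, an open reading frame of a Ty retrotransposon, had R1157H and a synonymous change at I1154, each on 36% of 11 reads. Reads of such repeats can come from another copy, so these shares are uncertain.

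A group of 8 calls was above 50% and below 90%, 6.72% of the 119 against 4.24% of all 354. They were the 4 of the restricted G:C to A:T set named above, HSM3, the chromosome 11 insertion and a second one 16 bases from it (87% of 47 reads, beside a parental insertion on 80% of 40), and a synonymous S290 in LEU2 on 79% of 946 reads. The remaining 55 calls did not pass the test in either direction and were not nearly fixed.

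LEU2 had the highest depths among the 119 calls. At 3 synonymous LEU2 positions in both lists, V135 was on 84% of 1375 reads in RRC8 and 81% of 1272 reads in the parental pool, K218 on 84% of 1333 and 82% of 1292, and G261 on 82% of 1182 and 77% of 1049. Depth there was a median of 22.2 times the library's median over calls scored at least 200 in RRC8 (19.7 to 22.9) and 20.9 times in the parental pool (17.2 to 21.2). High depth at LEU2 was thus seen in both libraries.

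By substitution, G:C to A:T changes were 55 of the 92 single-base calls of RRC8, 59.8% (49.0% to 69.9%). Among the 197 single-base calls that RRC8 shared with the parental list they were 56, 28.4% (22.2% to 35.3%). In the restricted set they were 37 of 37 (90.5% to 100%), with C to T as listed in 24 and G to A in 13. Outside the restricted set they were 18 of 55, 32.7% (20.7% to 46.7%), beside 15 A:T to G:C and 11 A:T to T:A changes.

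Overlap with the other mutants was also counted over calls absent from the parental list. RRC4 held 27 of the RRC8 calls, 22.7% of the RRC8 calls and 10.3% of its own. The RRC4 title and strain name are those of a mutant, but its description speaks of the parental strains, so what that pool holds is uncertain wherever it counts among the 7 other lists. RRC5 held 23, 19.3% of the RRC8 calls and 14.0% of its own, and the lowest number was 14, in RRC6. Within the restricted set the shared count was 1, the UAF30 deletion in RRC5, and all other restricted calls of RRC8 were absent from the calls of the other mutants counted here. That set allowed at most 1 other mutant list with a call at the position, so a low overlap was fixed by its definition.

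The 234 calls in both lists with at least 10 reads in each were then compared by Fisher's exact test of reads with and without the alternate allele, two-sided and adjusted over all 234. This compares reads of 2 libraries, not strains. Of them 2 (0.855%) were lower in RRC8 and 0 were higher, while 6 had an unadjusted p below 0.05 (4 lower and 2 higher). One of the 4 lower was a mitochondrial position, in COX1, at 98% in RRC8 and 99% in the parental pool. Both adjusted calls lay on chromosome 15, the chromosome of UAF30, and no other call of the comparison passed.

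DSC3 (YOR223W), a subunit of a Golgi ubiquitin ligase complex, had G225C at position 760454 on 19% of 81 reads in RRC8 (11.7% to 30.1%), against 54% of 72 reads in the parental pool (42.0% to 66.0%). The difference was -35 points (Fisher's exact adjusted p = 0.00248). YOR231C-A, an open reading frame, had R34G at position 773264 on 18% of 72 reads in RRC8 (9.98% to 28.9%), against 47% of 63 reads in the parental pool (34.9% to 60.6%). That difference was -29 points (Fisher's exact adjusted p = 0.0438). The calls are 109 kb and 96.3 kb from the UAF30 deletion and 12.8 kb from each other, so they are not independent. Their scores in RRC8 were 60 and 46, against 225 each in the parental list.

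**Figure D4:**
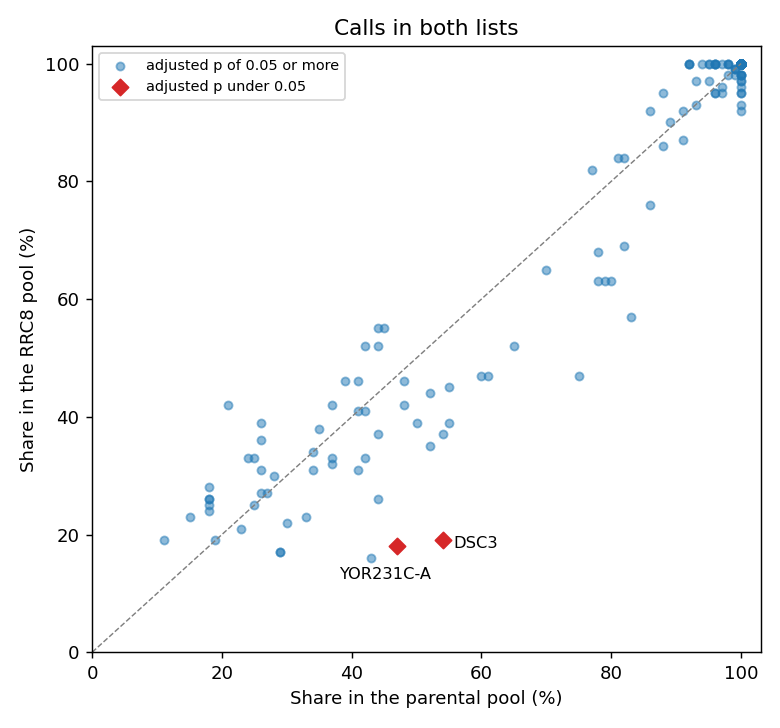
Percent of reads with the alternate allele in the RRC8 pool (y axis) against the parental pool (x axis) for 234 calls in both lists; each point is 1 call, the 2 calls past the adjusted threshold are red diamonds and the dashed line marks equal shares. DSC3 and YOR231C-A lie at 19% and 18% in RRC8 against 54% and 47% in the parental pool.

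Another chromosome 15 call, in the Ty open reading frame YOL103W-B, 752 kb from UAF30, was on 55% of 114 reads in RRC8 and 45% of 111 reads in the parental pool. Of 16 single-base shared calls at 40% to 60% in the parental pool with a parental score of 200 or more, the 14 besides DSC3 and YOR231C-A were at 33% to 55% in RRC8 (median 41.5%) and 41% to 55% in the parental pool, with a smallest adjusted p of 1. Calls at 90% or more in the parental pool numbered 163, of which 162 were also at 90% or more in RRC8.

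The same positions in the other mutant pools give the wider picture. In RRC1 to RRC7, in that order, DSC3 was at 50%, 44%, 41%, 52%, 27%, 28% and 26%, and YOR231C-A at 44%, 45%, 54%, 62%, 28%, 33% and 46%. RRC8 had the lowest share at both positions and RRC5, the other pool with the UAF30 deletion, was at 27% and 28%, with RRC6 at 28% and 33% and RRC7 at 26% for DSC3. No difference between these pools was tested, and the values compare reads of single libraries.

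**Figure D5:**
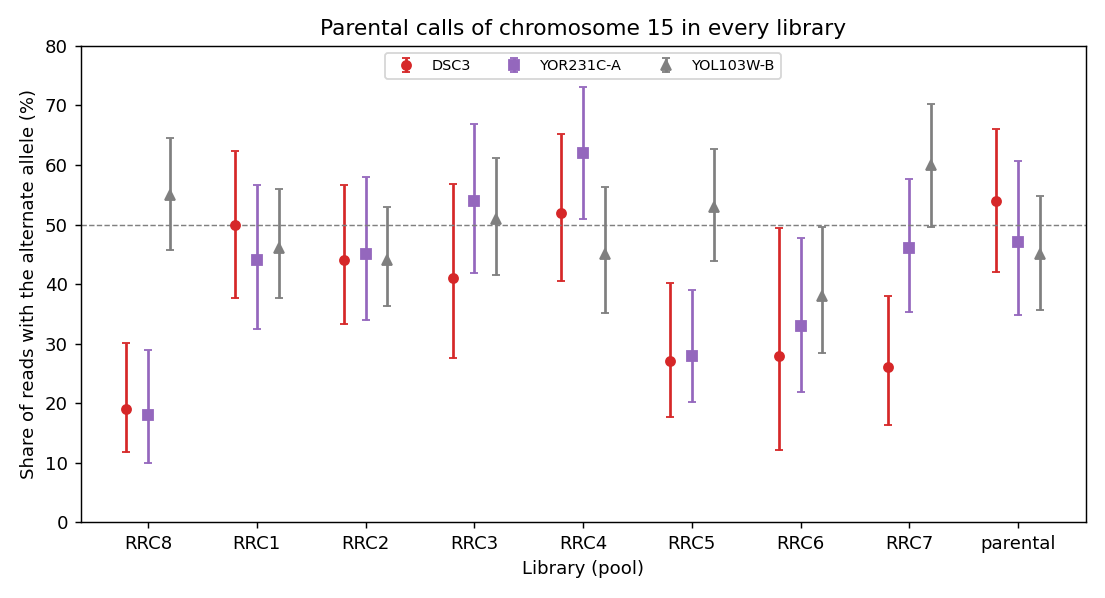
Percent of reads with the alternate allele (y axis) for DSC3, YOR231C-A and YOL103W-B in the 8 mutant pools and the parental pool (x axis); points are shares and bars exact 95% binomial intervals. RRC8 is at 19%, 18% and 55%, and the parental pool at 54%, 47% and 45%.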

How the data were processed

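Calls came from the deposited lists of the 8 mutant pools and the parental pool. The full lists have no header, and their columns were read by the headers of the authors' shortened lists. Per the file headers there, the deposited columns hold for each call a score (named MapQ), a count of reads and the percent of them carrying the alternate allele, which the values show to be rounded down. Alternate reads were recovered as the smallest number giving that percent, which is exact where depth is at most 100 and otherwise a lower bound. For the parental library the submitters' processing notes name SAMtools 0.1.19, Bowtie 1.0.0 and MACS2, with no role. Caller, filters and build were not given in the sources used here. Gene names matched RefSeq R64 by locus tag for 59 of 64 loci. Its coordinates were used as a check only, and all 62 coding member calls with a matched locus lay inside that locus.

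Members had at least 10 reads and no identically written entry in the parental list. Tests were two-sided exact binomial and Fisher's exact tests with Benjamini-Hochberg adjustment, in Python 3.11.15 with SciPy 1.17.1. They were also run on simulated reads drawn independently at known shares. That simulation left out clone sampling and amplification, so it checks the calculation only. The members, gene lists and restricted set were chosen with earlier results of these data known. Named were genes with nearly fixed or restricted protein changes, genes of the lists, genes with several calls and the shared calls past the threshold. The other genes were named after their values were seen. Alternatives changed depth, matching, score and the other mutant lists.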

Additional observations from a re-analysis of the deposited data

Results flagged for a closer look

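Read depth on mitochondrial DNA was not one of the measures compared above. At 4 mitochondrial positions in both lists, depth was a median of 24.8 times the library's median over calls scored at least 200 in RRC8 (22.0 to 27.8), against 18.5 times in the parental pool (17.4 to 20.2). The ranges did not overlap, but they run over positions within a single library each, which are not replicates. Each pool is a single library, so the difference in depth between the pools was not tested.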

How the results depend on the processing

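No paired analysis was possible because each pool is 1 library and the labels give no replicate numbers shared by the groups. Of the 119 calls, 71 had alleles that were also absent, by exact match, from the other 7 mutant lists and 39 belonged to the restricted set. The 25 nearly fixed calls became 6 with no parental call at the position, 3 with none within 5 bases, 6 when absent from the other lists, 1 in the restricted set, 5 among single-base calls and 6 when trimmed alleles were compared, an alternative chosen after seeing the data. The 6 protein-changing ones became 2, 1, 0, 1, 1 and 2 in the same order, and the 0 leaves out UAF30 because RRC5 carries its allele. Calls below 50% became 18 when absent from the other lists and 0 in the restricted set, whose score threshold none of them reached, against 31. The G:C to A:T share of 59.8% became 46.8% without a minimum depth, 80.6% when absent from the other lists and 100% in the restricted set. The mean share of restricted G:C to A:T calls became 46.2% at any score, also chosen after seeing the data. With a score of 200 or more in both lists, 0 of 141 shared calls passed Fisher's exact test (1 at an unadjusted p below 0.05), since DSC3 and YOR231C-A, with RRC8 scores of 60 and 46, were left out. Among the other 40 values the 119 calls stood at 90 to 160 and the 25 nearly fixed at 19 to 32. The 6 protein-changing ones stood at 5 to 8 and the 31 below 50% at 27 to 31. Not all of these changes were smaller in proportion than those above. The G:C to A:T share was 59.8% to 64.9% there. DSC3 and YOR231C-A stayed lower in RRC8 and past the threshold with 20 reads in both lists and among single-base calls.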
